A study of Mus musculus with 48 samples.

Results

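The cytosolic ribosomal protein genes of the mouse were followed in lactating dams kept hot or at a comfortable temperature. They were taken as protein-coding genes named Rpl or Rps with a number, together with Rplp0, Rplp1, Rplp2 and Rpsa. This rule matched 83 of 58913 genes by symbol, 32 of the small subunit and 51 of the large subunit. A mean of at least 1 FPKM in a tissue, the level needed to enter a test, was met by 80 of the 83 in each of hypothalamus, pituitary and mammary gland. FPKM count fragments per length of gene and relative to the size of the library. The length that fits the values is that of all annotated exons, such as 499 bases for Rplp1 and 6270 for Rps15a. This length can differ from that of the mRNA, so a rank of genes by FPKM depends on the annotation as well. The rule used no difference between groups. Rack1 and Rpl36al, which are also components of the ribosome, lie outside it.

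The dams were ICR mice, an outbred laboratory stock, aged 10 weeks and at day 13 of lactation. Heat-stressed dams were held at 36 °C and control dams at 25 °C, both at 55% relative humidity, in a climate incubator, and were killed straight after the exposure, whose length is not given in the sources used here. Hypothalamus, pituitary and the left number 4 mammary gland were sequenced as bulk RNA, with 8 heat and 8 control libraries per tissue and 48 in all. The animals carried no transgene or engineered allele that the labels name.

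Ribosomal proteins build the small and the large subunit around ribosomal RNA, most as a single copy per ribosome, while the stalk proteins Rplp1 and Rplp2 are present in more. Their mRNAs are among the most abundant of most cells. In vertebrates these mRNAs begin with a terminal oligopyrimidine tract, or TOP, a C followed by a run of C and U, through which the kinase mTORC1 and the RNA-binding protein LARP1 control their translation. The same genes have left many processed pseudogenes, intronless copies of the spliced mRNA, across mammalian genomes.

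Start sites are shown first because the tract begins there. The promoter table of RefSeq, on build GRCm38.p6, held 63 of the 83 genes. Each line below runs 5′ to 3′ from 30 bases before to 20 bases after the annotated start site, on the gene's own strand, and capitals mark the longest run of C and T that touches the 5 bases on either side of the start. Rps6, Rps27, Rps27l, Rpl22l1 and Rpl13a were chosen as genes with long runs that recur in the results, and Rplp0 as one with a short run.
Rps6: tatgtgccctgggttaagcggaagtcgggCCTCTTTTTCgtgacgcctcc
Rps27: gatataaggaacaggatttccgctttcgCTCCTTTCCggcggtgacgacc
Rps27l: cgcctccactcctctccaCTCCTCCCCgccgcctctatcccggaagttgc
Rpl22l1: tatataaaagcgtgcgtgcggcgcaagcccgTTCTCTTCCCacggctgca
Rpl13a: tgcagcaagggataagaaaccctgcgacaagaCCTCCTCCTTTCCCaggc
Rplp0: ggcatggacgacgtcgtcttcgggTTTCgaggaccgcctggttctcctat

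These windows lie at chr4:86857348-86857397 on the minus strand for Rps6, at chr3:90213629-90213678 on the minus strand for Rps27 and at chr9:66946056-66946105 on the plus strand for Rps27l. Those of Rpl22l1, Rpl13a and Rplp0 lie at chr3:28805478-28805527 on the plus strand, chr7:45128726-45128775 on the minus strand and chr5:115559437-115559486 on the plus strand. A C followed by at least 5 pyrimidines began within 5 bases of the start in 25 of the 63 ribosomal protein genes, or 39.68%, against 10.21% of all 27025 genes of the table. A C at the annotated first base followed by at least 4 pyrimidines was found in 12, or 19.05%, against 2.49%. Short motifs were searched on both strands of the 300 bases from 250 before to 50 after the start, and none of them contains another. CCGGAA, a core bound by ETS family factors, was present in 50.79% of the ribosomal protein promoters against 15.22% of all promoters. GGGCGG, the GC box of SP1, was present in 60.32% against 35.91%, and AAGATGGC, the YY1 motif, in 7.94% against 2.88%. TATAAA was present in 9.52% against 14.16%, the E box CACGTG in 7.94% against 7.24%, and GAANNTTC, a core of the heat shock element, in 4.76% against 7.95%. Annotated start sites can lie some bases from the base used most, and a match is only a run of letters.

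The libraries held 10893077 to 22166080 fragments on annotated genes and 153330 to 685230 on the 83 ribosomal protein genes, as recovered from the steps of the FPKM values. A count of 3 fragments was worth 0.105 to 0.60 FPKM for a gene of 1 kb, a floor that covers counting error only. Markers of the labelled tissues were high in part. Summed milk protein genes reached 205868 to 316186 FPKM in heat and 193122 to 393603 FPKM in control mammary glands. Summed hypothalamic peptide genes reached 1623 to 4254 FPKM in heat and 1488 to 3269 FPKM in control hypothalami. In pituitary Pomc averaged 50799 FPKM in heat and 27652 FPKM in control dams, while the anterior lobe hormones Prl and Gh were low, Prl at 6.17 and 22.5 FPKM and Gh at 14.2 and 11.3 FPKM in heat and control dams. In mammary gland the milk genes Wap and Glycam1 were low as well, Wap at 39.1 and 81.0 FPKM and Glycam1 at 0.108 and 0.892 FPKM in heat and control dams. Of 6 heat shock genes, 5 were higher in heat in hypothalamus and all 6 in pituitary and in mammary gland. Hspa1b, the inducible chaperone HSP70, averaged 413 ± 283 FPKM in heat and 6.23 ± 2.93 FPKM in control mammary glands (SD, n = 8 each). In every tissue the libraries with numbers 1 to 3 differed from numbers 4 to 8 in both treatments. Heat counts and medians of the ribosomal protein genes are given with and without libraries 1 to 3. Most other results are given over all libraries only. The labels name no batch.

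Levels differed widely between ribosomal protein genes of the same tissue. Rplp1, an acidic protein of the P stalk that recruits translation factors, had the highest FPKM in every tissue. It had 694 ± 118 FPKM in hypothalamus, 1113 ± 146 FPKM in pituitary and 1298 ± 267 FPKM in mammary gland (SD, n = 16 each). Rpl36 and Rpl8, both of the large subunit, followed in hypothalamus with 337 ± 108 and 332 ± 35.3 FPKM and in mammary gland with 947 ± 316 and 933 ± 118 FPKM. In pituitary Rps3a1, of the small subunit, came next with 781 ± 217 FPKM, and Rpl36 with 743 ± 195 FPKM. At least 100 FPKM was reached by 23 of the 83 genes in hypothalamus, 50 in pituitary and 55 in mammary gland. The median gene had 61.6 FPKM in hypothalamus, 117 FPKM in pituitary and 204 FPKM in mammary gland. Small subunit genes had medians of 66.5, 131 and 224 FPKM in these tissues, and large subunit genes 59.0, 110 and 177 FPKM. Within each tissue the levels of tested genes spanned more than 2 orders of magnitude.

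The lowest levels were near the limit of 1 FPKM. In hypothalamus the lowest tested genes were Rpl24 at 1.00 ± 0.273 FPKM, Rpl34 at 1.13 ± 0.207 FPKM and Rpl29 at 1.89 ± 0.591 FPKM. In pituitary they were Rpl21, Rpl24 and Rpl34, at 1.503 ± 1.87, 2.21 ± 0.661 and 2.21 ± 0.459 FPKM, and in mammary gland Rpl21, Rpl24 and Rpl34, at 1.24 ± 2.50, 1.60 ± 0.755 and 2.00 ± 0.725 FPKM (SD, n = 16 each). Pseudogenes and other Rpl or Rps genes that share a stretch of at least 100 identical bases with a member were taken as its copies. Such copies existed for all but 11 of the 83 genes, with a median of 3 and at most 37. In mammary gland Rpl29 held 3.2% of the length-weighted signal of itself and its 23 copies, Rpl24 held 7.7% and Rpl21 held 8.2%. Under 50% was held by 9 genes in hypothalamus, 7 in pituitary and 11 in mammary gland. How the authors counted fragments that align to several places is not given in the sources used here, so the levels of these genes are uncertain.

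The 3 genes under the limit of 1 FPKM were second copies known from other tissues. Rpl3l, the striated muscle form of Rpl3, averaged 0.0873 FPKM in hypothalamus, 0.0785 FPKM in pituitary and 0.0462 FPKM in mammary gland. Rpl39l, the testis form of Rpl39, averaged 0.0321, 0.0104 and 0.0945 FPKM in the same tissues. Rpl10l, the testis form of Rpl10, was listed at 0 in all 48 libraries. Their parents were abundant: Rpl10, encoded on the X chromosome and involved in subunit joining, averaged 87.2 FPKM in hypothalamus, 331 FPKM in pituitary and 399 FPKM in mammary gland. Just inside the limit stood Rpl24 in hypothalamus and Rpl21 in pituitary and mammary gland, with the values given above. Rps4l was not found among the annotated symbols and is not analysed here.

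Heat changed no ribosomal protein gene past the threshold in any tissue (limma, Benjamini-Hochberg adjusted p under 0.05 over all tested genes). Of 80 tested ribosomal protein genes 0 were called in hypothalamus, where 0.681% of all genes were called, 0 in pituitary, where 3.79% were called, and 0 in mammary gland, where 5.31% were called. At an unadjusted p under 0.05 there were 3 higher and 0 lower in hypothalamus, where 5.83% of all genes were higher and 2.92% lower (8.75% in all). In pituitary there were 0 in either direction, against 9.19% higher and 7.41% lower (16.6% in all). In mammary gland there were 2 higher and 0 lower, against 10.4% higher and 11.1% lower (21.5% in all). With limma-voom on the recovered fragments 0 were called as well, with 0.638, 3.62 and 5.61% of all genes called in the 3 tissues. The median log2 change of the ribosomal protein genes, heat minus control, was 0.02 in hypothalamus, 0.02 in pituitary and 0.13 in mammary gland, and that of all tested genes was 0.00, 0.01 and -0.01. Among the ribosomal protein genes 52, 51 and 72 of 80 had a positive change, against 51.1, 51.3 and 48.1% of all genes.

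Levels by library show how much the groups overlapped. Rplp1 had a lowest, median and highest value of 497, 661 and 958 FPKM in heat and 610, 674 and 790 FPKM in control hypothalami. In mammary gland the same gene had 986, 1408 and 1799 FPKM in heat and 973, 1166 and 1419 FPKM in control dams, and its log2 change was 0.24 ± 0.14 (SE) with an adjusted p of 0.318. The ranges overlapped in both tissues. Rplp0, the base of the stalk, averaged 182 ± 32.8 FPKM in heat and 192 ± 75.9 FPKM in control mammary glands, and Rplp2, the partner of Rplp1, 191 ± 50.1 and 162 ± 45.7 FPKM (SD, n = 8 each). The heat values of Rplp0 lay wholly within the control range.

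Rps6, the substrate of S6 kinase downstream of mTORC1, had 123, 145 and 197 FPKM as lowest, median and highest in heat and 136, 150 and 194 FPKM in control hypothalami. In mammary gland it had 384, 445 and 576 FPKM in heat and 337, 424 and 561 FPKM in control dams. Its log2 change was -0.0014 ± 0.11 in hypothalamus, 0.01 ± 0.13 in pituitary and 0.08 ± 0.12 in mammary gland. Rpl5 and Rpl11, which with 5S RNA form the particle that binds MDM2 when it is free, did not pass in any tissue. The log2 changes of Rpl5 were 0.01, -0.06 and 0.16 and those of Rpl11 -0.0021, 0.08 and 0.10, in hypothalamus, pituitary and mammary gland. Rpsa, also known as a laminin receptor, had a log2 change of -0.25 ± 0.13 in hypothalamus with an adjusted p of 0.635. It averaged 83.9 ± 18.4 FPKM in heat and 99.9 ± 12.03 FPKM in control hypothalami, and the ranges overlapped.

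**Figure D1:**
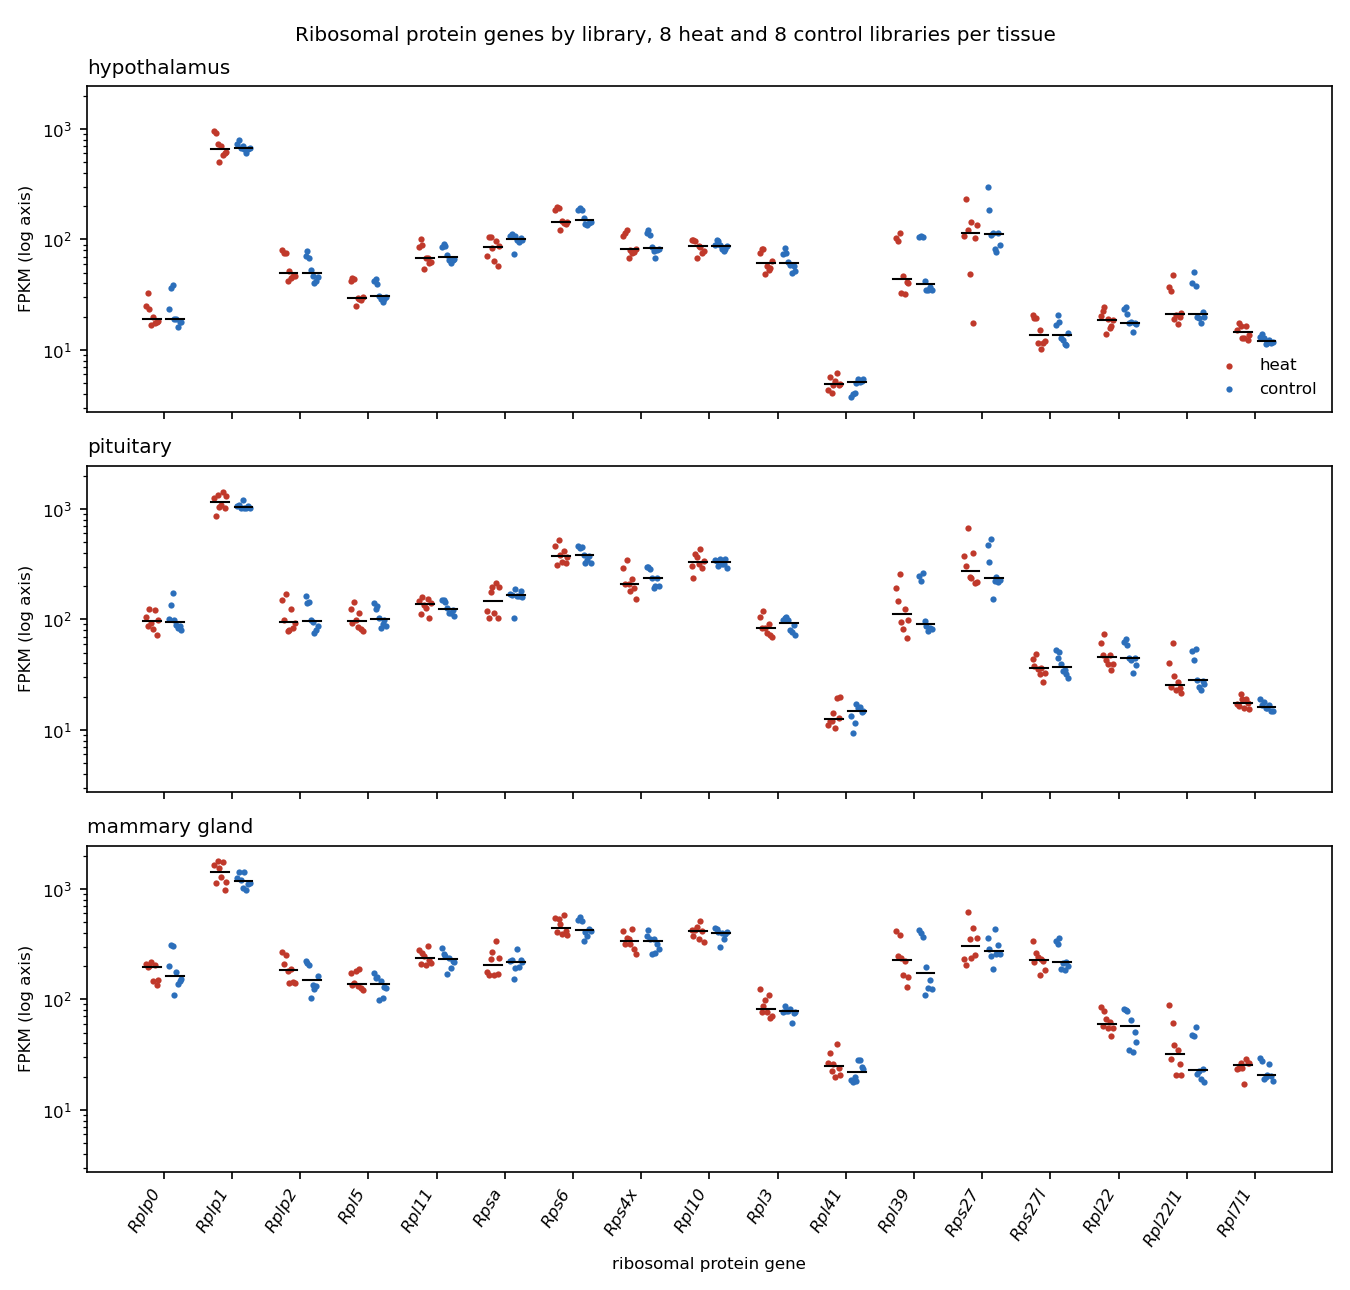
FPKM on a log axis of 17 ribosomal protein genes in hypothalamus, pituitary and mammary gland. Each point is a library, 8 heat libraries in red to the left of 8 control libraries in blue, and the black line is the median. Heat and control points of every gene shown overlap, Rplp1 lies highest in each tissue, and Rps27l is far higher in mammary gland, with medians of 226 FPKM in heat and 216 FPKM in control dams, than in hypothalamus, with 13.7 and 13.6 FPKM.

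In hypothalamus the gene closest to a call was Rpl7l1, a relative of Rpl7 known for a role in assembling the large subunit. In heat dams it had 15.1, 17.4, 16.5, 12.9, 12.9, 16.3, 12.3 and 13.8 FPKM and in control dams 13.1, 14.03, 12.9, 11.3, 11.6, 12.3, 11.6 and 11.9 FPKM, libraries 1 to 8 in order. All 8 heat values lay above the control median, and the ranges overlapped. The log2 change was 0.24 ± 0.07 (SE; 95% interval 0.09 to 0.40) with an adjusted p of 0.172. It was 0.11 ± 0.08 in pituitary and 0.14 ± 0.11 in mammary gland. With a term for libraries numbered 1 to 3 the same change in hypothalamus passed, with an adjusted p of 0.0159, in a fit that called 3.48% of all genes.

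The highest and lowest estimates were as follows. In hypothalamus the lowest log2 changes were those of Rpl30, Rps2 and Rpl35a, at -0.84, -0.61 and -0.40, and the highest those of Rpl26, Rpl29 and Rpl7l1, at 0.92, 0.30 and 0.24. In pituitary Rpl30, Rpl35a and Rps2 stood lowest at -0.68, -0.62 and -0.56, and Rpl26, Rps14 and Rps27 highest at 1.12, 0.24 and 0.17. In mammary gland Rpl30, Rps2 and Rpl35a stood lowest at -1.11, -0.66 and -0.57, and Rpl26, Rpl29 and Rps14 highest at 1.22, 0.47 and 0.40. The 95% interval of Rps2 in mammary gland ran from -3.86 to 2.55 and that of Rpl26 from -0.91 to 3.34. Rpl30, Rps2, Rpl35a and Rpl26 each have a near-identical copy, described below.

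In mammary gland Rps9, a small subunit protein, averaged 256 ± 36.8 FPKM in heat and 219 ± 16.1 FPKM in control dams, a log2 change of 0.23 ± 0.09 with an adjusted p of 0.126. Of the 8 heat values 7 lay above the control median. Rpl29 averaged 2.83 ± 0.863 FPKM in heat and 1.87 ± 0.931 FPKM in control mammary glands, a log2 change of 0.47 ± 0.21 with an adjusted p of 0.201. Summed with its copies Rpl29 had a log2 change of 0.05 ± 0.15. Both genes were called when all 48 libraries shared 1 estimate of the spread, in a fit that called 18.9% of all genes in mammary gland.

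**Figure D2:**
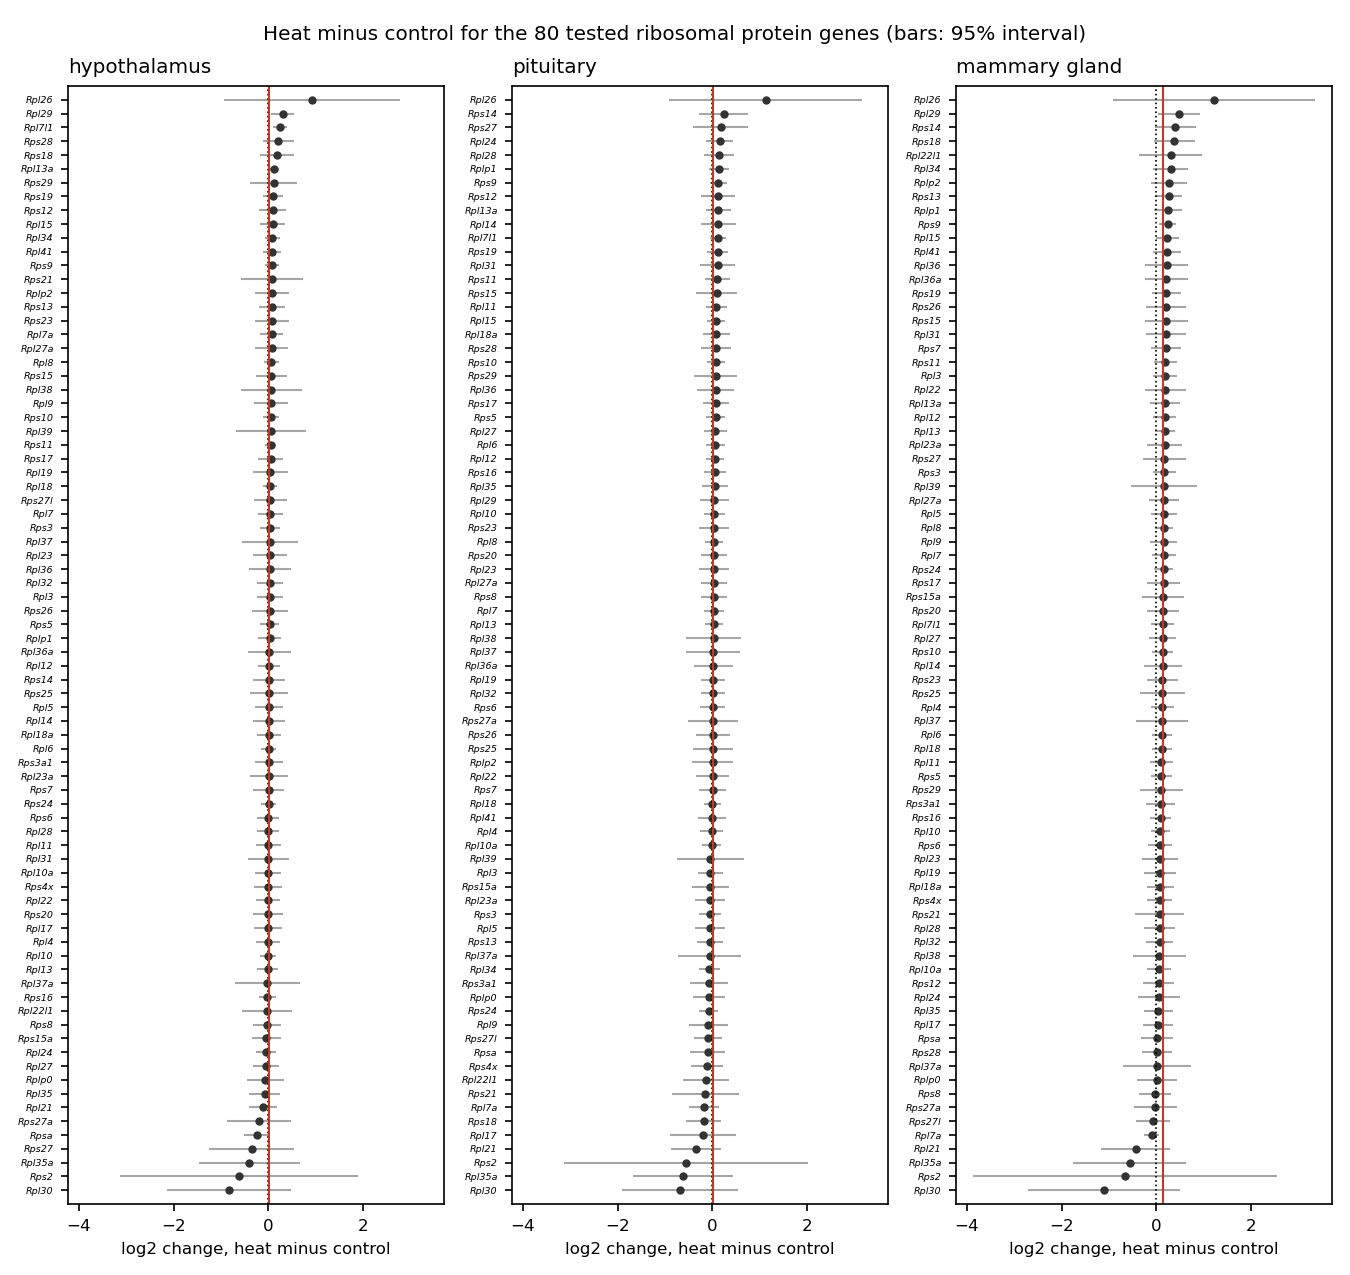
Log2 change, heat minus control, of the 80 tested ribosomal protein genes in each tissue, sorted by size. Points are limma estimates and grey bars 95% intervals; the red line is the median of the genes, 0.02, 0.02 and 0.13, and the dotted line is 0. Most mammary points lie right of 0, and the widest bars belong to Rps2, Rpl26 and Rpl30.

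The small shift in mammary gland moved with the libraries used. Among libraries numbered 4 to 8 the median log2 change was 0.22 with 74 of 80 genes positive, and among those numbered 1 to 3 it was -0.06 with 29 of 79 positive. Of the ribosomal protein genes 0 were called in either set. Among all genes 3, 9.81 and 2.85% were called in libraries 4 to 8 of hypothalamus, pituitary and mammary gland, and 0% in libraries 1 to 3. After quantile normalization the median was 0.04. Leaving out 1 library at a time gave medians of 0.08 to 0.19. In pituitary libraries 4 to 8 gave 0.08 and libraries 1 to 3 gave -0.12, in hypothalamus -0.01 and 0.06.

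Lymphocyte markers also differed between mammary libraries. The summed level of 9 T cell markers ranged from 0.851 to 79.3 FPKM in heat and from 1.41 to 51.7 FPKM in control mammary glands, with medians of 20.4 and 1.74 FPKM. That of 7 B cell markers ranged from 2.09 to 61.5 FPKM in heat and from 1.91 to 48.5 FPKM in control glands. Heat libraries 4, 5, 6 and 8 and control library 5 were high. The part of these cells in the shift was not tested beyond the covariate given next. Of the markers, 7 T cell and 5 B cell genes reached the limit of 1 FPKM, and 0 passed the test in either list. With the mean marker level as a covariate the median log2 change of the ribosomal protein genes was 0.09, with 67 of 80 positive. In bulk tissue a change in the share of a cell type and a change in RNA per cell cannot be told apart.

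The summed level of the 83 genes was described without a test. It made up 3.18 ± 0.569% of all FPKM in heat and 3.15 ± 0.493% in control hypothalami. In pituitary it was 6.39 ± 2.03% in heat and 6.96 ± 1.42% in control dams, and in mammary gland 3.60 ± 0.455% in heat and 3.29 ± 0.262% in control dams (SD, n = 8 each). The ranges overlapped in all 3 tissues, from 2.79 to 4.04% in heat and 2.97 to 3.72% in control mammary glands. In pituitary the mean percent was lower in heat, while the summed FPKM was 14147 ± 2840 in heat and 13995 ± 2468 in control dams. The percent also depends on the other genes in the sum, whose part was not tested.

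The heat change did not differ between tissues past the threshold for any of the 80 genes in a test of the heat by tissue interaction (limma F test, 48 libraries), where 2.1% of all genes were called. At an unadjusted p under 0.05 there were 0 as well. With libraries of 1 treatment and number as a random block over the tissues, at a correlation of 0.299, the count was again 0.

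Genes that accompany ribosomal proteins gave the following counts. The shares of all genes called, for comparison with these lists, were 0.681% in hypothalamus, 3.79% in pituitary and 5.31% in mammary gland. Of 20 other genes known for TOP mRNAs, which include elongation factors, 0 were called in any tissue. At an unadjusted p under 0.05, 8 of the 20 listed were higher in mammary gland, against 10.4% of all genes. In pituitary there were 0, against 16.6% of all genes in either direction, and in hypothalamus 1 was lower, against 2.92%. The gene was Eef1a1, near the limit at 1.18 ± 0.268 FPKM in heat and 1.48 ± 0.234 FPKM in control hypothalami. The median log2 change of these TOP genes was 0.03, 0.04 and 0.14 in hypothalamus, pituitary and mammary gland. Nap1l1, a histone chaperone, had the smallest adjusted p in mammary gland, with 6.95 ± 1.45 FPKM in heat and 4.98 ± 1.23 FPKM in control dams and an adjusted p of 0.0842. Of 30 genes of ribosome biogenesis, 1 was called in pituitary and 1 in mammary gland, a share under that of all genes in both. At an unadjusted p under 0.05 there were 7 lower and 2 higher in pituitary and 4 lower and 1 higher in mammary gland, against 7.41% lower and 9.19% higher and 11.1% lower and 10.4% higher of all genes. Rrs1, needed for assembly of the large subunit, was lower in heat pituitary, at 5.49 ± 0.704 FPKM in heat and 7.51 ± 1.41 FPKM in control dams (adjusted p 0.0497). Taf1d, a factor of RNA polymerase I, was higher in heat mammary gland, at 8.596 ± 1.26 FPKM in heat and 6.51 ± 1.164 FPKM in control dams (adjusted p 0.0486).

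Genes of the mTORC1 and LARP1 branch were listed together with Myc, Mycn and Max. Of this list 1 of 18 tested was called in hypothalamus, 2 of 19 in pituitary and 2 of 18 in mammary gland. All were higher in heat, and 0.681, 3.79 and 5.31% of all genes were called in either direction. Ddit4, an inhibitor of mTORC1, averaged 191 ± 93.2 FPKM in heat and 38.2 ± 26.5 FPKM in control mammary glands, a log2 change of 2.43 ± 0.37 (adjusted p 0.0015). In pituitary it averaged 58.6 ± 14.1 FPKM in heat and 36.2 ± 2.28 FPKM in control dams (adjusted p 0.00255). All 8 heat values lay above the control median in both tissues. Max, the partner of Myc, was the other call in pituitary and in mammary gland, with log2 changes of 0.26 and 0.29. In hypothalamus Eif4ebp2, a repressor of cap-dependent initiation, was called with a log2 change of 0.25 ± 0.05 (adjusted p 0.0213). Of 21 other translation factors, Eif4a2, a helicase of initiation, was the only call, in mammary gland, where 5.31% of all genes were called, with 60.6 ± 6.03 FPKM in heat and 47.9 ± 7.34 FPKM in control dams (adjusted p 0.0453).

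The mitochondrial ribosome and the pseudogenes were counted for comparison. Of 75 or 76 tested mitochondrial ribosomal protein genes, 1 was called, against 5.31% of all genes in mammary gland. It was Mrpl19 in mammary gland, lower in heat at 2.82 ± 0.380 FPKM against 3.61 ± 0.307 FPKM in control dams (adjusted p 0.0359). Their medians were -0.01, -0.02 and -0.04. Of 64, 79 and 88 tested pseudogene rows of ribosomal proteins in hypothalamus, pituitary and mammary gland, 0 were called, against 0.681, 3.79 and 5.31% of all genes. Among 5 noncoding TOP genes that host small nucleolar RNAs 0 were called, and Gas5 had log2 changes of 0.30, 0.25 and 0.30. Rack1, a ribosome component outside the rule, was not called in any tissue. In mammary gland it averaged 144 ± 19.2 FPKM in heat and 131 ± 12.8 FPKM in control dams. Rpl36al, also outside the rule, was lower in heat pituitary without a call, at 1.82 ± 0.394 FPKM against 2.56 ± 0.498 FPKM in control dams. Its log2 change there was -0.33 ± 0.10 (limma, adjusted p 0.0893), and no heat value lay above the control median.

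A few genes differed widely between the 16 libraries of a tissue, both treatments together. Rps2, Rpl26, Rpl30 and Rpl35a had a highest library over 10 times the lowest in each of the 3 tissues, 4 of 80 ribosomal protein genes or 5.0%, against 1.09% of all 9681 genes with at least 1 FPKM in every tissue. Each has a processed pseudogene that differs from its coding sequence by 7 or fewer bases. The other ribosomal protein genes are not aligned with their copies here, so whether such close copies are particular to these 4 is not shown. A stretch of 60 coding bases is printed for each pair, on the strand of the gene, with capitals at the bases in which gene and pseudogene differ, to show how little separates them. Sequences are from the GENCODE M21 transcripts.
Rps2: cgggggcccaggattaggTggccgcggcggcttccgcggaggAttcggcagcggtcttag
Rps2-ps13: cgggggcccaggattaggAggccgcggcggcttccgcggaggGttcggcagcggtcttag
Rpl26: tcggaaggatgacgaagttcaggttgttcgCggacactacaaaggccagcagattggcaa
Gm15772: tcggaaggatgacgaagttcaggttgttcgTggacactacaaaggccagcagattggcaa
Rpl30: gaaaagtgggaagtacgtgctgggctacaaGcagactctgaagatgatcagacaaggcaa
Gm12191: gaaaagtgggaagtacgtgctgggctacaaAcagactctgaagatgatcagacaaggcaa
Rpl35a: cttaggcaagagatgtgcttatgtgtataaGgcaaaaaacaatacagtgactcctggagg
Rpl35a-ps2: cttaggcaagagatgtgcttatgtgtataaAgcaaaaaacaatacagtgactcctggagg

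Over the whole coding sequence Rps2 and Rps2-ps13 differed at 7 of 879 bases, Rpl26 and Gm15772 at 2 of 435, Rpl30 and Gm12191 at 1 of 345, and Rpl35a and Rpl35a-ps2 at 1 of 330. On build GRCm38 the genes lie at chr17:24718116-24721929 for Rps2, chr11:68901583-68906989 for Rpl26, chr15:34440505-34443640 for Rpl30 and chr16:33056453-33060189 for Rpl35a. Their pseudogenes lie at chrX:52898588-52899469, chr5:3236431-3236868, chr11:49678710-49679057 and chr1:181241988-181242320, all annotated as processed pseudogenes. None of these pseudogenes is on the chromosome of its gene.

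Rps2, a small subunit protein near the mRNA entry site, was high in the same library numbers in every tissue. In hypothalamus heat libraries 2 and 7 had 70.1 and 56.9 FPKM and the other 6 heat libraries 0.298 to 0.988 FPKM, and control libraries 5, 6 and 7 had 60.2, 64.0 and 57.6 FPKM and the other 5 controls 0.405 to 0.705 FPKM. In mammary gland the same numbers had 190 and 230 FPKM in heat and 185, 205 and 231 FPKM in control dams, and all others 0.625 to 1.80 FPKM in heat and 0.106 to 1.85 FPKM in control dams. Pituitary repeated these 5 numbers, with 85.8 and 103 FPKM in heat and 106, 93.3 and 91.7 FPKM in control dams. The 5 high libraries belonged to both treatments.

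Rps2-ps13 was low where Rps2 was high. In hypothalamus it had 211 and 170 FPKM in heat libraries 2 and 7 and 190, 194 and 179 FPKM in control libraries 5, 6 and 7, against 300 to 398 FPKM in the other heat and 326 to 382 FPKM in the other control libraries. Summed with its copies by length, Rps2 ranged only from 148 to 196 FPKM in hypothalamus. The highest library was 2172 times the lowest in mammary gland for Rps2 alone and 1.61 times for the sum. The log2 change with heat for the sum was 0.01 ± 0.07 in hypothalamus, -0.05 ± 0.10 in pituitary and 0.11 ± 0.09 in mammary gland.

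Rpl26, a large subunit protein that also binds the p53 mRNA in human cells, was high in other libraries. Heat libraries 4, 6 and 7 had 38.3, 44.2 and 47.4 FPKM in hypothalamus and control library 1 had 74.0 FPKM, and the rest had 0.648 to 4.25 FPKM in heat and 1.41 to 2.28 FPKM in control dams. The same 4 libraries were high in pituitary, at 99.4, 117 and 75.9 FPKM in heat and 120 FPKM in control dams, and in mammary gland, at 165, 160 and 117 FPKM in heat and 179 FPKM in control dams. Gm15772 was lowest among heat hypothalami in these libraries, at 154, 172 and 174 FPKM. Summed with copies, the ratio of highest to lowest in mammary gland was 2.52 in place of 155, and the log2 changes with heat were -0.01, -0.0032 and 0.13 in hypothalamus, pituitary and mammary gland.

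**Figure D3:**
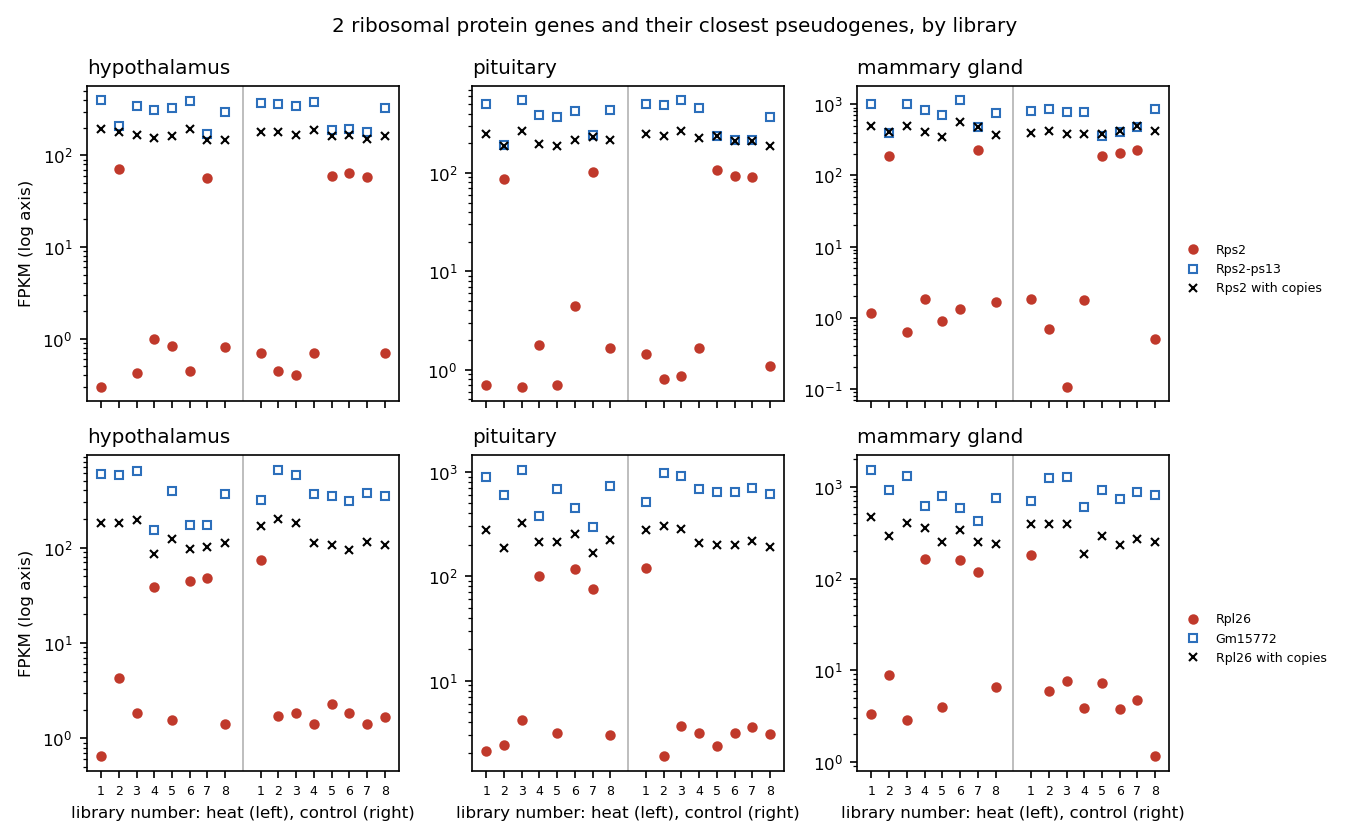
FPKM on a log axis of Rps2 with Rps2-ps13 (upper row) and Rpl26 with Gm15772 (lower row) in each library, heat libraries 1 to 8 left of control libraries 1 to 8. Red points are the gene, open blue squares the pseudogene and crosses the gene summed with all its copies by length. The gene is high in the same library numbers in all 3 tissues, in heat 2 and 7 and control 5, 6 and 7 for Rps2, and within a tissue the crosses stay within 2.52-fold for Rpl26 and 1.61-fold for Rps2.

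Rpl30 and Rpl35a varied in more steps. Rpl30, whose protein in yeast and mammals also regulates its own mRNA splicing or selenocysteine reading, had 1.24 to 40.2 FPKM in heat and 3.73 to 63.2 FPKM in control hypothalami, lowest in heat libraries 1 and 4 and highest in control library 3. In mammary gland heat libraries 1 and 4 again had the lowest values, 2.12 and 4.27 FPKM, and control library 3 the highest, 189 FPKM. Gm12191 had 2069 and 1366 FPKM in those heat libraries and 235 FPKM in that control library. With copies Rpl30 ranged 2.32-fold in mammary gland in place of 89.2-fold, and its log2 change with heat was 0.11 in place of -1.11. Rpl35a, a gene mutated in some human patients with Diamond-Blackfan anaemia, was highest in control library 1 in every tissue, at 50.5 FPKM in hypothalamus, 86.3 FPKM in pituitary and 156 FPKM in mammary gland. Among heat libraries number 2 was highest, at 23.99, 28.7 and 53.6 FPKM, and with copies Rpl35a still ranged 10.5-fold in mammary gland.

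The libraries with high Rps2 or Rpl26 were the same numbers in hypothalamus, pituitary and mammary gland and belonged to both treatments. The pseudogenes Rps2-ps13 and Gm15772 were lower in heat libraries in which Rps2 or Rpl26 was high, and their part in the result was not tested. When every ribosomal protein gene was summed with its copies, 0 were called for heat in each tissue, with 0.681, 3.79 and 5.31% of all genes called.

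Between tissues many ribosomal protein genes differed. In control dams 70 of 80 were higher and 0 lower in pituitary than in hypothalamus (limma, 24 libraries), while 32.3% of all genes were higher and 40.8% lower. The median log2 difference was 1.02 for the ribosomal protein genes and -0.05 for all genes. Under every scaling tried 70 to 75 were higher and 0 lower, against 32.3 to 44.5% of all genes higher and 30.5 to 40.8% lower. Rplp0 led with a difference of 2.14 ± 0.22 (SE; adjusted p 3.63e-09), at 106 ± 32.7 FPKM in pituitary and 23.6 ± 8.90 FPKM in hypothalamus (SD, n = 8 each). The lowest pituitary value of Rplp0 was 80.9 FPKM and the highest hypothalamic value 38.6 FPKM, so the groups did not overlap. Rpl10 followed with 1.87 ± 0.07, at 327 ± 21.4 and 88.0 ± 7.16 FPKM, and Rpl5 with 1.62 ± 0.14, at 108 ± 21.6 and 33.8 ± 6.62 FPKM. The smallest differences were those of Rpl21, Rpl13a and Rpl22l1, at -0.24, -0.13 and 0.30, none of which passed. With the library number as a block 78 were higher and 0 lower, against 34.8 and 43.3% of all genes, and Rpl22l1 passed (adjusted p 0.00179). The block treats libraries of 1 number as matched between tissues, which the labels do not state.

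Mammary gland stood above hypothalamus for 70 of 80 genes and below it for 1, while 38.2% of all genes were higher and 45.7% lower, with medians of 1.46 for the ribosomal protein genes and -0.11 for all genes. Rps27l, the second copy of Rps27 and a known p53 target, led with 4.00 ± 0.16 (adjusted p 9.86e-18). It had a lowest, median and highest value of 184, 216 and 359 FPKM in mammary gland and 11.1, 13.6 and 20.5 FPKM in hypothalamus, with no overlap. Rplp0 followed with 2.96 ± 0.22 and Rps28, of the small subunit, with 2.52 ± 0.16. The gene that was lower was Rpl13a, known for its release from the ribosome in human myeloid cells, with -0.25 ± 0.09 (adjusted p 0.0114). With the library number as a block 73 were higher and 2 lower, against 39.7 and 47.4% of all genes. Rpl21 was then called as well, at -0.49 (adjusted p 0.00585). Summed with copies 77 were higher and 0 lower, against 38.2 and 45.7% of all genes, and Rpl21 was higher at 0.58 (adjusted p 0.00196). With each library rescaled to the same sum of FPKM, which milk mRNAs take up in the mammary gland, 26 were higher and 19 lower. Of all genes 15.2% were then higher and 74.7% lower, and the medians were 0.06 for the ribosomal protein genes and -1.39 for all genes. Without milk protein and hormone genes in that sum 65 were higher and 3 lower, against 29.9 and 55.4% of all genes.

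The order of mammary gland and pituitary depended on the scaling. With median-ratio scaling 45 of 80 genes were higher and 5 lower in mammary gland than in pituitary, against 37.2 and 43.5% of all genes. After quantile normalization 2 were higher and 53 lower, against 38.1 and 40.8% of all genes. With the same sum of FPKM in each library 1 was higher and 75 lower, against 11.4 and 79.6% of all genes. Without milk protein and hormone genes in that sum 7 were higher and 43 lower, against 21 and 64.2%. The medians with the same sum were -1.08 for the ribosomal protein genes and -1.41 for all genes, or -0.29 and -0.75 without milk protein and hormone genes. No direction is therefore given for the group. Rps27l was at the top of this contrast, with 2.63 ± 0.16 (adjusted p 1.14e-13) and 251 ± 72.2 FPKM in mammary gland against 39.7 ± 8.66 FPKM in pituitary. Rpl32 and Rpl35 came next with 1.36 ± 0.13 and 1.14 ± 0.14. Rps24, Rpl29 and Rps15 were lowest with -0.73 ± 0.08, -0.50 ± 0.16 and -0.45 ± 0.18. Summed with copies 50 were higher and 0 lower, against 37.3 and 43.5% of all genes. Rpl29 was then called in the opposite direction at 0.48 (adjusted p 0.000416), and Rps24 and Rps15 stood at 0.31 and -0.21 without a call.

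**Figure D4:**
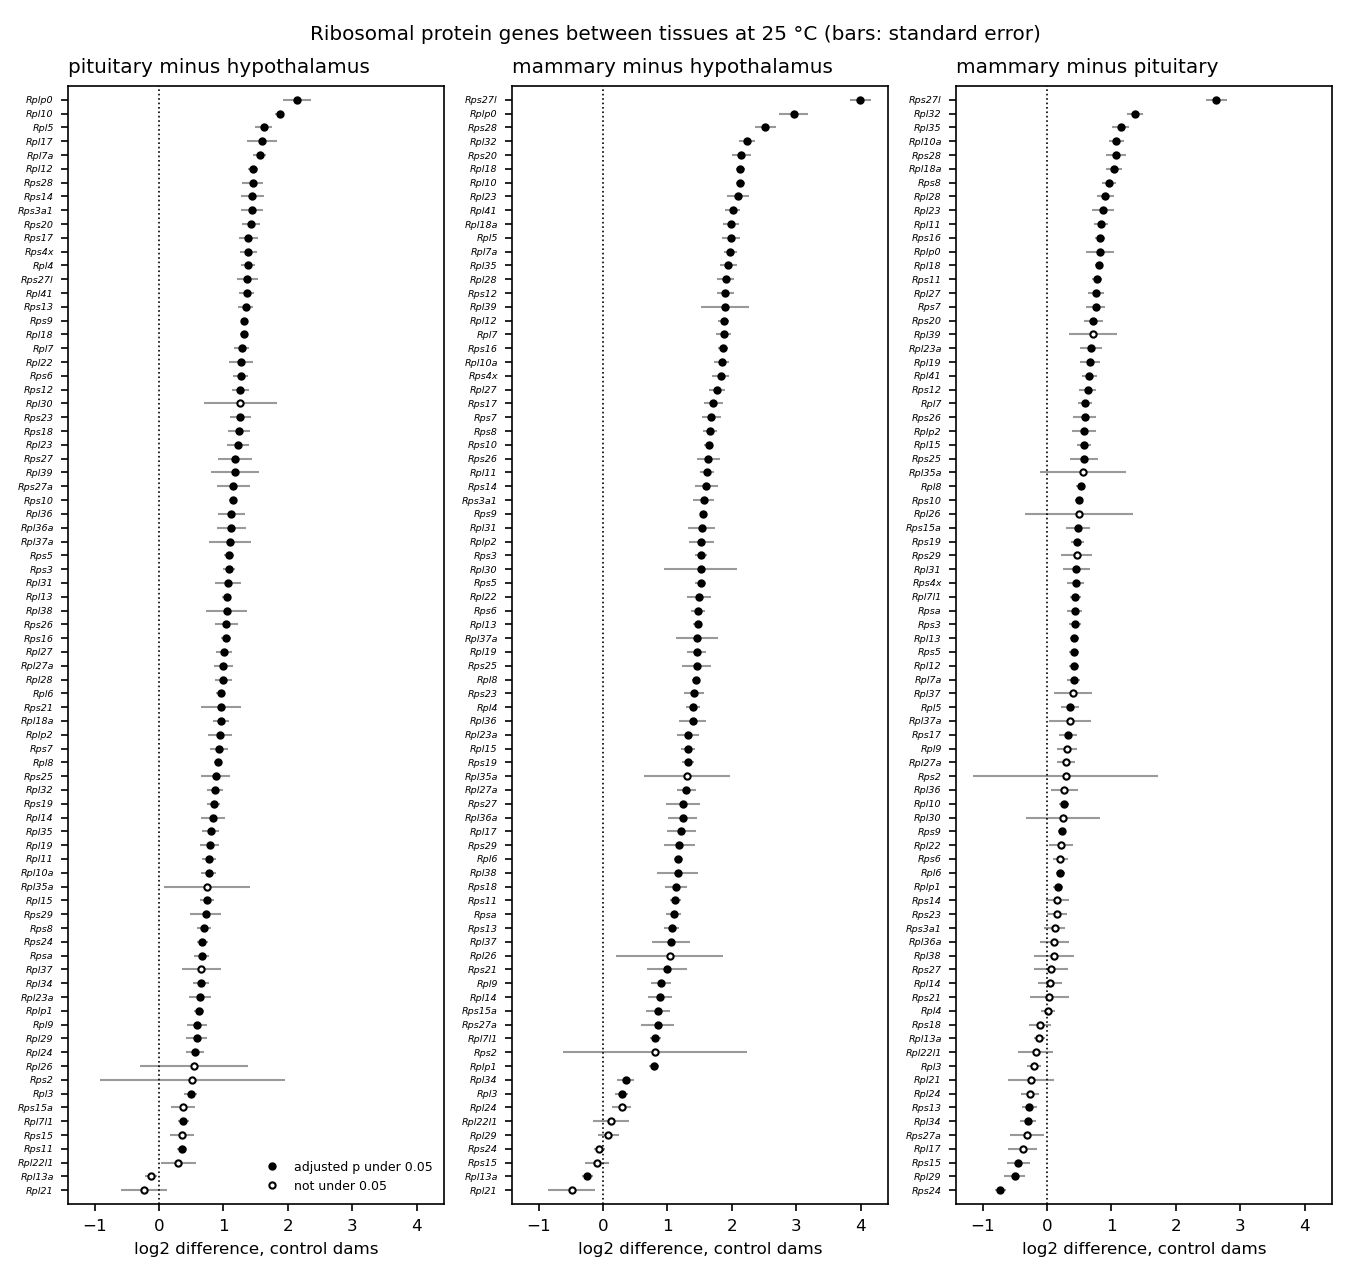
Log2 difference between tissues at 25 °C for the 80 tested ribosomal protein genes, sorted within each panel. Points are limma estimates over 24 control libraries, filled where the adjusted p is under 0.05, and bars are standard errors. Nearly all genes lie right of 0 for pituitary and mammary gland against hypothalamus, Rps27l leads in mammary gland at 4.00 and 2.63, and the third panel changes direction with the scaling.

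The balance between a gene and its second copy differed with it. The ratio of Rps27l to Rps27 was 0.780 ± 0.342 in heat and 0.895 ± 0.294 in control mammary glands, against 0.120 ± 0.027 and 0.147 ± 0.049 in heat and control pituitaries. In hypothalamus it was 0.196 ± 0.168 in heat and 0.125 ± 0.037 in control dams (SD, n = 8 each). The ratio ran from 0.083 to 0.589 in heat and from 0.057 to 0.162 in control hypothalami. Rps27 itself had a highest hypothalamic library 16.9 times the lowest. The control ranges of mammary gland, 0.495 to 1.45, and of pituitary, 0.095 to 0.259, did not overlap. The ratio of Rpl22l1 to Rpl22, its partner gene whose protein represses Rpl22l1, was highest in hypothalamus, at 1.40 ± 0.332 in heat and 1.43 ± 0.380 in control dams. It lay under Rpl22 in pituitary, at 0.635 ± 0.106 and 0.699 ± 0.117, and in mammary gland, at 0.598 ± 0.222 and 0.533 ± 0.116. Heat and control ratios overlapped in every tissue.

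Libraries numbered 1 to 3 carried more of these mRNAs than those numbered 4 to 8. The median difference on the log2 scale, averaged over treatments, was 0.47 in hypothalamus, 0.29 in pituitary and 0.21 in mammary gland, against 0.03, 0.01 and 0.00 for all tested genes. By treatment it was 0.51 in heat and 0.43 in control hypothalami. In pituitary it was smaller in heat, at 0.19 against 0.39 in control dams, as in mammary gland, at 0.13 against 0.38. Averaged over treatments, the difference also had a direction in single genes. This averaged difference was positive for 67, 58 and 60 of 80 ribosomal protein genes, against 53.4, 51.6 and 50.6% of all genes. A difference over 0.5 in heat and in control libraries alike was found for 30, 13 and 9 of 80, against 2.19, 2.49 and 1.53% of all genes. These figures describe the libraries and carry no test, since the split was known from earlier results.

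Rpl39, a small protein of the exit tunnel, showed it most. In hypothalamus it had 103, 97.3 and 114 FPKM in heat libraries 1 to 3 and 32.3 to 46.9 FPKM in heat libraries 4 to 8, and 104, 107 and 106 FPKM in control libraries 1 to 3 and 35.0 to 42.2 FPKM in control libraries 4 to 8. Neither treatment had an overlap between the sets there. In mammary gland control libraries 1 to 3 had 427, 397 and 367 FPKM and the others 110 to 198 FPKM. Averaged over treatments the difference was 1.45 in hypothalamus, 1.32 in pituitary and 1.20 in mammary gland. Rpl37a followed with 1.20, 0.97 and 1.14, and Rpl37, Rps21, Rpl38 and Rpl22l1 also reached 0.79 in every tissue. In the summed level the 3 libraries held the top 3 places in both groups of hypothalamus and in control pituitary.

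**Figure D5:**
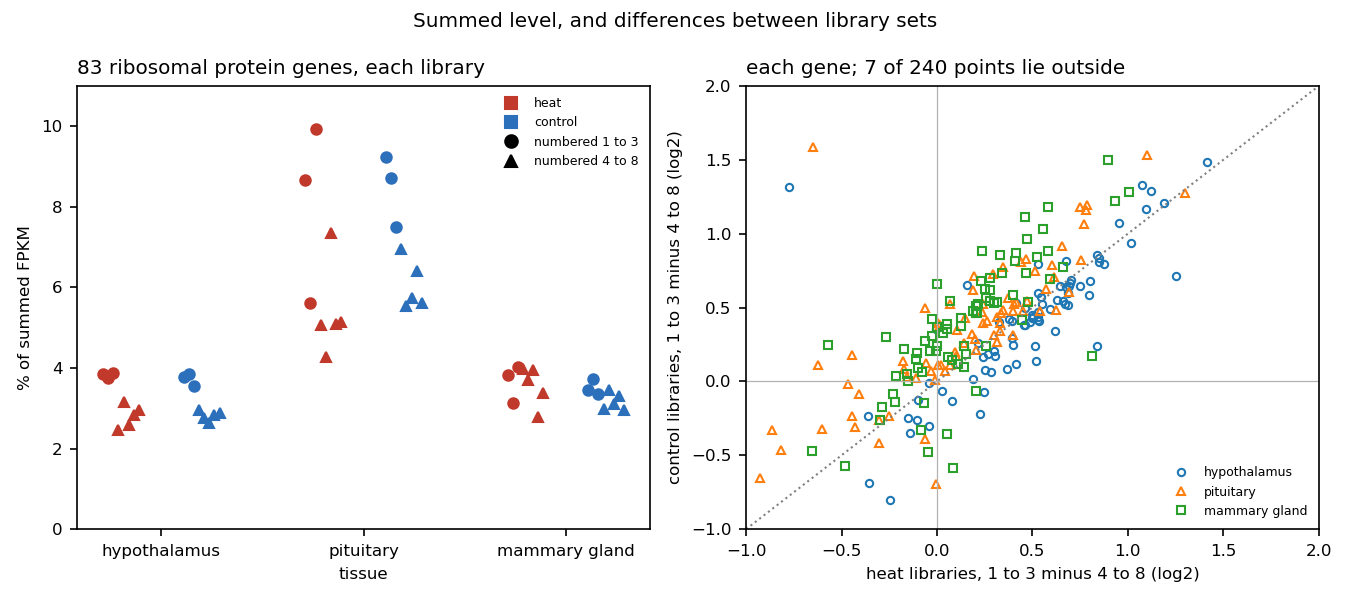
Left, percent of all FPKM held by the 83 ribosomal protein genes in each library, heat in red left of control in blue, circles for libraries numbered 1 to 3 and triangles for 4 to 8. Right, for each tested gene and tissue the log2 difference of libraries 1 to 3 minus 4 to 8 in heat (horizontal axis) and control dams (vertical axis), with 7 of 240 points outside the axes. In hypothalamus circles lie above triangles in both treatments, and most genes lie right of and above 0.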

How the data were processed

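Bulk RNA of 48 libraries was measured, 8 per treatment and tissue. FPKM values were deposited by the authors, who used HISAT2 2.0.5, featureCounts 1.5.0-p3 and DESeq2 1.16.1, with build mm9, according to the submitters' processing notes; how fragments that align to several places were counted is not given in the sources used here. FPKM are no counts, so limma 3.58.1 in R 4.3.3 was run on log2(FPKM + 1) after median-ratio scaling within a tissue, for genes with a mean of at least 1 FPKM, with Benjamini-Hochberg adjustment over all genes and a threshold of 0.05. Fold changes of low genes are understated on this scale. Whole fragments were recovered from the FPKM steps with GENCODE M21 exon lengths, and 94.7 to 96.9% of values under 50 fragments came out within 0.02 of a whole number. GENCODE M21 is on build GRCm38, while the notes name mm9, and this difference was not resolved. Tissues were compared in the 24 control libraries. Scripts were tested on simulated data. Named genes are a chosen set of ribosomal protein genes, the 3 highest and 3 lowest levels per tissue and changes per comparison, and from each other list the called genes or the one of smallest adjusted p; Rps9, the genes that vary between libraries and those that differ between library sets were named after their values were seen. The members and lists were chosen with earlier results of these data known. The labels call the libraries biological replicates. Same-numbered control libraries of different tissues deviated together, with correlations of 0.231 to 0.718 in all 8 pairs of each tissue pair. Among heat libraries the correlations went down to 0.0229, for hypothalamus with pituitary. Heat and control libraries of 1 number, which share only that number, reached 0.780 in hypothalamus. The labels name no animal, and whether libraries of 1 number come from 1 dam was not tested. Alternatives were other scalings, pseudocounts and filters, blocks, library sets, sums with copies and limma-voom, the last 2, fits of libraries 1 to 3 alone, the random block and the tissue fits by library set being added after the data were seen.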

Additional observations from a re-analysis of the deposited data

Results flagged for a closer look

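A library was singled out where its gap to the nearest other library of its group, over the range of the group, exceeded Dixon's 95% value for 8 libraries. This held for 18 of 150 groups of values, and chance flags about 1 in 20 groups. The genes looked at included Rps2, Rpl26, Rpl30, Rpl35a and Rpl21, which were named after their values were seen to vary. The count therefore cannot be set against chance. Rpl26 was far above the other 7 control libraries in control library 1 of hypothalamus at 74.0 FPKM, of pituitary at 120 FPKM and of mammary gland at 179 FPKM. Rpl35a was highest in heat library 2 of hypothalamus at 23.99 FPKM, of pituitary at 28.7 FPKM and of mammary gland at 53.6 FPKM. Among control libraries it was highest in number 1 of hypothalamus at 50.5 FPKM, of pituitary at 86.3 FPKM and of mammary gland at 156 FPKM. Rpl21 was highest in control library 5 of the same tissues, at 4.99, 8.497 and 10.6 FPKM. In these 3 genes the same library number was singled out in all 3 tissues. Rplp1 was highest in control pituitary library 4 at 1211 FPKM, and Rps27 in heat pituitary library 3 at 672 FPKM. Rpsa was lowest in control library 3 of hypothalamus at 73.7 FPKM and of pituitary at 102 FPKM. Rpl7l1 was lowest in heat mammary library 5 at 17.05 FPKM, and Rpl3 in control mammary library 6 at 61.1 FPKM.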

How the results depend on the processing

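No ribosomal protein gene passed the heat test under leaving out any 1 library (0 to 0 in each tissue), and the median log2 change then lay between -0.03 and 0.07 for hypothalamus, between -0.04 and 0.07 for pituitary and between 0.08 and 0.19 for mammary gland. A replicate block, or a term for libraries 1 to 3, gave 1 call in hypothalamus, Rpl7l1, where 2.01 and 3.48% of all genes were called. Heat and control libraries share only a number, with correlations over 0.1 in 7, 7 and 4 of 8 pairs in hypothalamus, pituitary and mammary gland. Fitting all 48 libraries together gave 2 calls in mammary gland, where 18.9% of all genes were called. Between control tissues the block on library number gave 78, 73 and 58 higher genes in place of 70, 70 and 45. Of all genes 34.8, 39.7 and 39.6% were higher with the block, in place of 32.3, 38.2 and 37.2%. Genes higher in mammary gland than in pituitary numbered 2 after quantile normalization, 1 with the same sum of FPKM per library and 7 without milk protein and hormone genes in that sum, and 26 were higher than in hypothalamus with the same sum. Of all genes 38.1, 11.4, 21 and 15.2% were higher, in the same order. Some changes with heat reversed. With libraries 1 to 3 only, Rps2 stood at 1.76, 1.64 and 2.32 and Rpl26 at -1.51, -1.62 and -2.002 in hypothalamus, pituitary and mammary gland, and Rps27 at -0.026 in pituitary. With libraries 4 to 8 only, Rpl30 stood at 0.16 in pituitary and 0.0063 in mammary gland. Summed with copies, Rpl30, Rps2 and Rpl26 stood at 0.013, 0.0062 and -0.014 in hypothalamus, Rpl30 and Rps2 at 0.11 and 0.11 in mammary gland, and Rps27 and Rpl26 at -0.0034 and -0.0032 in pituitary. The causes were not tested. Leaving out 1 library moved Rpl30 between -1.16 and -0.49 (hypothalamus), -1.11 and -0.39 (pituitary) and -1.46 and -0.64 (mammary gland), and in the same order Rps2 between -1.20 and -0.13, -1.15 and -0.05, and -1.38 and -0.03, and Rpl26 between 0.55 and 1.52, 0.67 and 1.74, and 0.77 and 1.84.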
